A study of Mus musculus with 6 samples.

Results

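Nuclear receptors are transcription factors that small fat-soluble ligands switch on, and the genes described here are 37 of these receptors and of the coregulators that they recruit. They were taken as a fixed list of 37 genes, 6 of them coregulators, and each has a row among the 23366 genes of the deposited count table. Of them 19 had enough reads to be tested and 18 were too low to test. The libraries came from CD4+ effector T cells that had been transferred into Rag-deficient hosts, which lack mature T and B cells, and were recovered from mesenteric lymph nodes 6 weeks after the transfer. Cells were sorted on rhodamine (Rh123), a fluorescent dye that the efflux pump Mdr1 exports. The Mdr1+ group held the dye-low cells and the Mdr1- group the dye-high cells, with 3 libraries each, and the strain background of all 6 is FVB/N. The groups are therefore fractions of a sorted population and not genotypes, although the labels list them under a genotype heading, and the labels state neither the donors nor whether each replicate is a separate mouse. The p-values measure only the spread between these libraries, which may be technical.

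As background, a ligand-bound receptor changes shape so that coactivators such as the p160 proteins replace corepressor complexes, and many receptors bind DNA only as a heterodimer with a retinoid X receptor (RXR). Oxysterols act through the LXRs, bile acids through FXR, foreign compounds through PXR and CAR, retinoic acid through the RARs, fatty acids through the PPARs, and cortisol or corticosterone through the glucocorticoid receptor. In T cells of the gut, retinoic acid imprints homing receptors, glucocorticoids restrain activation, and Mdr1 protects cells from bile acids. The comparison of Mdr1+ with Mdr1- cells asks how effector cells that differ in Mdr1 activity differ in their transcripts.

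Libraries held 2220691 to 20771456 counts in genes for Mdr1+ and 5862443 to 10530324 for Mdr1-, and the Mdr1+ library of replicate 3 was the shallowest and lay away from the remaining 5 on the leading principal component. The columns of replicate 3 are deposited in another gene order than the rest and were put back on the names sorted ignoring case before any test, which moved 36 of the 37 members. No member's place depends on whether hyphens or other punctuation count in that order. Levels are CPM, a gene's reads relative to its library's total after edgeR's TMM adjustment, and fold changes are log2 of Mdr1+ over Mdr1- ± standard error. The 12 T cell markers, all tested, summed to 6572 to 7704 CPM in Mdr1+ and 6580 to 7530 CPM in Mdr1- libraries, and 0 of them passed the test in either direction, with or without the replicate block described next. In bulk samples, fewer cells of a type and less RNA per cell cannot be told apart.

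None of the 19 tested members passed edgeR's quasi-likelihood test at an adjusted p of 0.05, over all 10897 genes tested and with the group as the only term. By this rule 0.275% of all tested genes were called higher and 1.95% lower in Mdr1+ cells. At an unadjusted p under 0.05 the count was 3 members higher, against 4.63% of all tested genes, and 1 lower (Vdr), against 7.22%. DESeq2 called 1 member higher, Rara, against 1.04% of all tested genes, and 0 lower, against 3.50%. With the replicate number as a block, 5 members rose in Mdr1+ cells, which is 26.3% of the 19, against 5.81% of all tested genes, and 0 fell, against 6.57%. The 5 were Rara, Nr3c1, Nr1h2, Ncoa1 and Ncoa2, with fitted increases of 1.32-fold to 1.64-fold. The pairing of libraries by number is not stated by the labels and rests on a check of the data.

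The tested members lay slightly above the bulk of genes. Their median log2 fold change was 0.30, against 0.04 over all tested genes, and 16 of 19 had a positive value, which is 84.2%, against 54.2% of all tested genes. In 11 members the Mdr1+ library was higher in each of the 3 pairs of the same number, and in 2 it was lower in each, against 28.2% and 24.6% of all tested genes. Only Vdr differed by more than 1 on the log2 scale. The groups did not overlap for 5 members with higher values in Mdr1+ (Rara, Rxrb, Nr6a1, Ncoa1 and Ncoa2), against 8.71% of all tested genes, and for 1 with lower values (Vdr), against 11.0%. Vdr passed the low-count filter only through its Mdr1- libraries, which favours a lower value in Mdr1+, so its place in these counts is no separate support. A list of 20 cell cycle genes was lower in Mdr1+, the reverse of most members. Its summed level was 838 to 1030 CPM in Mdr1+ and 3083 to 4485 CPM in Mdr1- libraries. With the group alone 18 genes were lower, against 1.95% of all tested genes, and 0 higher, against 0.275%. The part of cell cycle state in the members' differences was not tested.

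**Figure D1:**
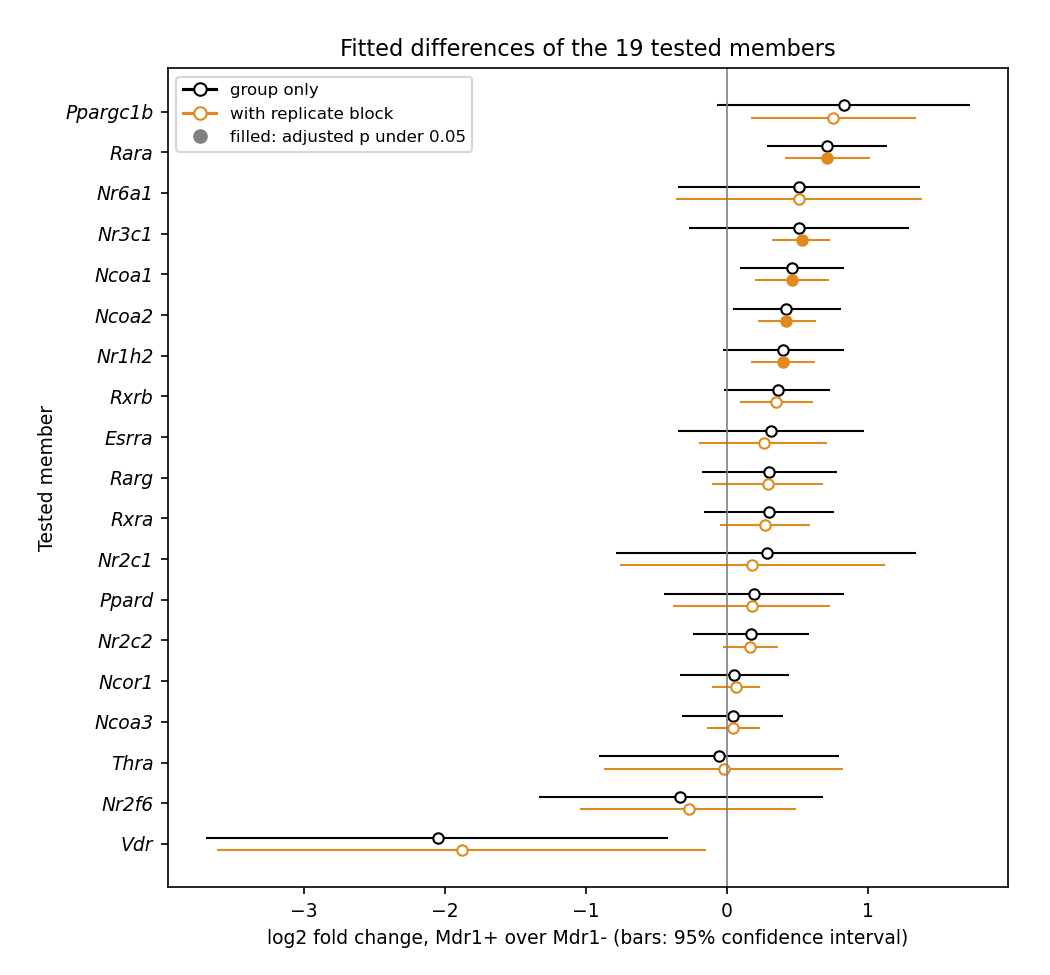
The x axis is the fitted log2 fold change, Mdr1+ over Mdr1-, and the y axis lists the tested members, with the group as the only term (black) and with the replicate number as a block (orange); bars are 95% confidence intervals and filled symbols have an adjusted p under 0.05. Filled symbols are seen only with the block, for Rara, Nr3c1, Ncoa1, Ncoa2 and Nr1h2, and Vdr lies lowest at -2.05.

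Per kilobase of exon, the receptors Nr1h2 and Nr3c1 and the coregulators Ncoa3 and Ncor1 had the highest levels. Nr1h2 stood at 75.3 ± 12.2 CPM per kb in Mdr1+ and 57.0 ± 9.28 in Mdr1-, and Nr3c1 at 73.2 ± 25.1 and 51.3 ± 20.8 (mean ± SD, n = 3 each). Ncoa3 stood at 66.1 ± 1.55 CPM per kb in Mdr1+ and 64.3 ± 5.63 in Mdr1-, and Ncor1 at 63.4 ± 5.30 and 61.0 ± 7.11. These 4 lay within their spread of each other, and Ncoa2 followed at 39.5 ± 3.89 CPM per kb in Mdr1+ and 29.5 ± 3.42 in Mdr1-. At the low end Vdr was at 0.122 CPM per kb in Mdr1+ and 0.680 in Mdr1-, and Nr6a1 at 1.00 and 0.695.

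Promoters of 31 of the 37 members are in RefSeq's table for GRCm38.p6, with 47 start sites in all. The 250 bases before the start are printed for the 3 genes that rose together with the block and have an entry, because a reader can see in them how unlike these promoters are; where a gene has several starts, the one with most GENCODE starts within 50 bases is shown. Each is read 5′ to 3′ on the gene's strand. Capitals mark GGGCGG, the GC box, on either strand. The receptor half-site AGGTCA, also searched on either strand, is in none of these 3 windows.
Rara, chr11:98937446-98937695, plus strand: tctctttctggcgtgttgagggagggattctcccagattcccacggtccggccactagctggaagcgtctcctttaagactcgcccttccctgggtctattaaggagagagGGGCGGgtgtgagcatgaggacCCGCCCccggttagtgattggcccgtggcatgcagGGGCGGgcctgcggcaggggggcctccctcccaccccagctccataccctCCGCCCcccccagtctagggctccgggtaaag
Nr1h2, chr7:44553966-44554215, minus strand: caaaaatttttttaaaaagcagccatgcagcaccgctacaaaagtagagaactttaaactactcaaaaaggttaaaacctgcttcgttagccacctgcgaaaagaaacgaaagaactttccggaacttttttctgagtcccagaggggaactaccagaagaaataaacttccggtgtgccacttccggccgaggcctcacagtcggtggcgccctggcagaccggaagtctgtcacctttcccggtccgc
Ncoa1, chr12:4477183-4477432, minus strand: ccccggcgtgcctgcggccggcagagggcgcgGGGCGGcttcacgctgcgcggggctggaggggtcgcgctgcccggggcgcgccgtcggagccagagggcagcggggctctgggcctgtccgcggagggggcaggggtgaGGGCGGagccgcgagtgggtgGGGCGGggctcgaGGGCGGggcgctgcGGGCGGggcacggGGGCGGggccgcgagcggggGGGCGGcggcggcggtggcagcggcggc
The Rara window holds 4 GC boxes and is 65.2% G or C, the Ncoa1 window holds 7 and is 85.6% G or C, and the Nr1h2 window holds 0 and is 48.4% G or C. Over all 32851 windows of that length in the table, 32.7% hold a GC box and 14.0% hold AGGTCA, and among the 47 member windows 22 and 10 do. Paired half-sites spaced by 1, 4 or 5 bases (AGGTCANAGGTCA, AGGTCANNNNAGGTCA and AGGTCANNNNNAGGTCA) are in 0 of the 47. A match of letters is a description and not a binding site.

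Among the retinoid receptors, Rara, which encodes the retinoic acid receptor alpha, had the largest difference of the 5 members that rose with the block. It was at 88.1, 95.4 and 71.2 CPM in the Mdr1+ libraries of replicates 1, 2 and 3, and at 60.4, 48.7 and 47.7 CPM in the Mdr1- libraries of the same numbers. Every Mdr1+ value lay above every Mdr1- value. The Mdr1+ mean was 84.9 ± 12.4 CPM and the Mdr1- mean 52.3 ± 7.05 CPM (SD, n = 3 each). The log2 fold change was 0.71 ± 0.19 (95% confidence interval 0.28 to 1.13, adjusted p = 0.12). With the block the value was 0.71 ± 0.13 (adjusted p = 0.0098), and DESeq2 gave 0.70 (adjusted p = 0.031). Without replicate 2, whose pair had a ratio of 1.96, the blocked value was 0.56 and did not pass (adjusted p = 0.1).

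Rarg, which encodes the related receptor gamma, was at 36.6, 53.9 and 37.7 CPM in Mdr1+ and at 37.9, 34.1 and 32.9 CPM in Mdr1- libraries. Its groups overlapped, and the log2 fold change was 0.30 ± 0.21 (95% confidence interval -0.18 to 0.78, adjusted p = 0.66). Rarb, the beta form and itself a classical retinoic acid target, had 1 count over the Mdr1+ and 1 over the Mdr1- libraries. In GENCODE M21, 1793 exonic bases of Rarb are shared with Top2b and 227 with Gm48162, on the opposite strand. The strand setting is not given, so reads there may go uncounted or to either gene. Per kilobase of exon, Rara averaged 19.8 ± 2.90 in Mdr1+ and 12.2 ± 1.65 CPM per kb in Mdr1- cells, and Rarg 12.6 ± 2.85 and 10.3 ± 0.774 CPM per kb (SD, n = 3 each).

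The thyroid hormone receptor gene Thra was at 7.81, 10.4 and 5.19 CPM in Mdr1+ and at 7.81, 6.66 and 11.0 CPM in Mdr1- libraries. The groups overlapped, with a log2 fold change of -0.06 ± 0.37 (95% confidence interval -0.91 to 0.79), whose sign turned without replicate 3. Thra shares 263 exonic bases with Nr1d1 on the opposite strand in GENCODE M21, and the strand setting of the counting is not given in the sources used here, so reads there cannot be assigned with certainty. Thrb, its paralogue, had 3 counts over the Mdr1+ and 5 over the Mdr1- libraries.

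RXRs are the shared partners of most receptors named here. Rxrb was at 80.4, 91.9 and 92.4 CPM in Mdr1+ and at 67.6, 75.7 and 63.3 CPM in Mdr1- libraries. The groups did not overlap, and the log2 fold change was 0.36 ± 0.16 (95% confidence interval -0.02 to 0.73, adjusted p = 0.45), with an adjusted p of 0.087 with the block. Rxra was at 59.3, 70.9 and 95.7 CPM in Mdr1+ and at 58.6, 61.3 and 62.3 CPM in Mdr1- libraries. Its groups overlapped, and its highest value was in the shallow Mdr1+ library of replicate 3 (log2 fold change 0.30 ± 0.20, 95% confidence interval -0.16 to 0.76). Rxrg, whose known sites are muscle and brain, had 0 counts in all 6 libraries. Per kilobase of exon, Rxrb was above Rxra, at 30.5 ± 2.35 against 14.8 ± 3.65 CPM per kb in Mdr1+ cells and 23.8 ± 2.16 against 11.9 ± 0.377 CPM per kb in Mdr1- cells (SD, n = 3 each).

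The corticosteroid receptors include a gene whose level followed the replicate number more than the group. Nr3c1, which encodes the glucocorticoid receptor, was at 611, 295 and 531 CPM in Mdr1+ and at 476, 204 and 326 CPM in Mdr1- libraries. The groups overlapped, but in each pair of the same number the Mdr1+ library was the higher, with ratios of 1.28, 1.45 and 1.63. Its log2 fold change was 0.51 ± 0.34 with the group alone (95% confidence interval -0.27 to 1.29, adjusted p = 0.64) and 0.53 ± 0.09 with the block (95% confidence interval 0.32 to 0.73, adjusted p = 0.0066). The blocked call held without replicate 1, 2 or 3, with values of 0.55, 0.53 and 0.42. Each of these fits leaves almost no libraries beyond its terms, so its estimate of spread leans on other genes. That makes it a weak check. Nr3c2, the mineralocorticoid receptor gene, was too low to test, with 43 counts over the Mdr1+ libraries, 36 of them in replicate 2, and 21 over the Mdr1- libraries.

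**Figure D2:**
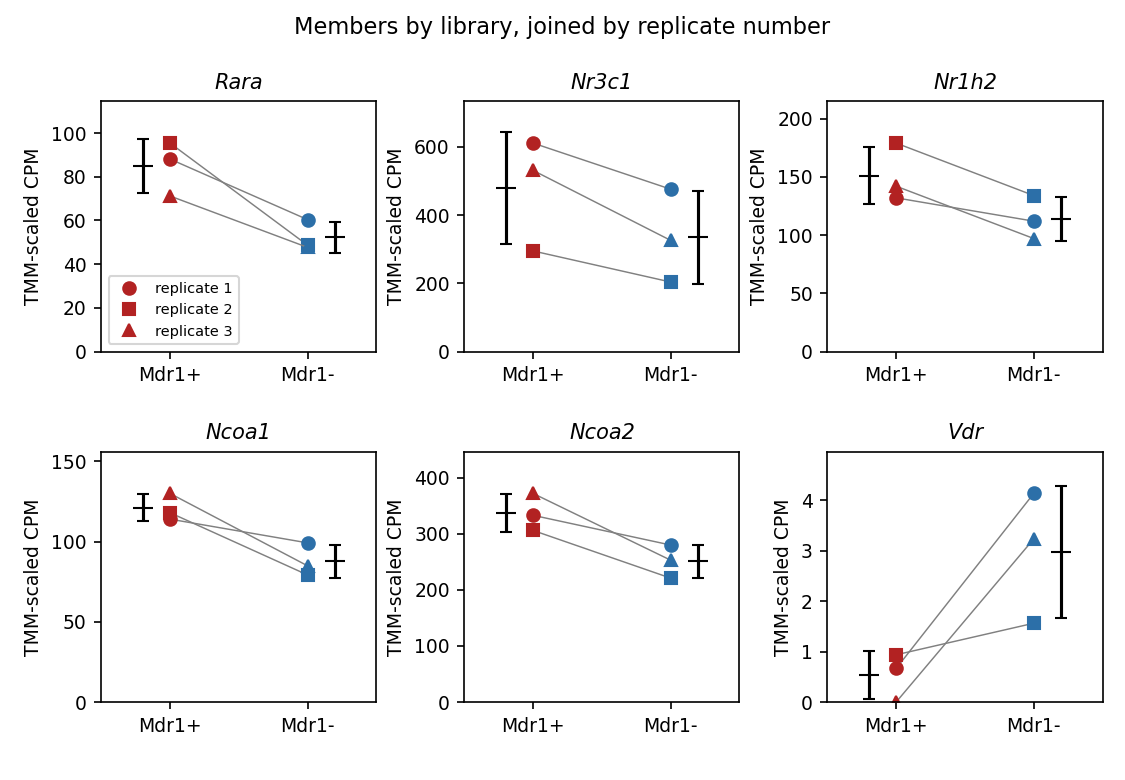
Levels of 6 members in TMM-scaled CPM (linear y axes starting at 0) in the Mdr1+ (red, left) and Mdr1- (blue, right) libraries; symbols mark the replicate number, grey lines join libraries of the same number, with mean and SD (n = 3) drawn in black. Rara, Nr3c1, Nr1h2, Ncoa1 and Ncoa2 are higher in the Mdr1+ library of each pair, Vdr is lower, and the groups overlap for Nr3c1 and Nr1h2.

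Of the 6 receptors of oxysterols, bile acids, foreign compounds and vitamin D, 2 were tested. Nr1h2, which encodes the widely expressed oxysterol receptor LXR beta, was at 132, 179 and 142 CPM in Mdr1+ and at 112, 134 and 97.1 CPM in Mdr1- libraries. The groups overlapped by a narrow margin, and each pair had the higher value in Mdr1+, with ratios of 1.18, 1.33 and 1.46. The log2 fold change was 0.40 ± 0.19 (95% confidence interval -0.03 to 0.83, adjusted p = 0.46), and 0.40 ± 0.10 with the block (adjusted p = 0.033). The blocked call was lost without replicate 1 (adjusted p = 0.063) and without replicate 2 (adjusted p = 0.17). Nr1h3, which encodes LXR alpha, the form of liver and macrophages, had 4, 11 and 0 counts in Mdr1+ and 9, 9 and 5 in Mdr1- libraries, too few to test. Scaled for depth these are 0.665, 0.514 and 0 CPM in Mdr1+ and 1.00, 0.778 and 0.849 CPM in Mdr1- libraries, lower in Mdr1+ without overlap. In the Mdr1+ library of replicate 3, however, 3 counts would already be 1.35 CPM.

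Vdr, the vitamin D receptor gene, is known to be induced when T cells are activated. It had 4, 20 and 0 counts in the Mdr1+ libraries and 37, 18 and 19 in the Mdr1- libraries, that is 0.665, 0.935 and 0 CPM against 4.13, 1.56 and 3.23 CPM. No Mdr1+ value reached a Mdr1- value, and 3 counts in the Mdr1+ library of replicate 3 would be 1.35 CPM of its total. Vdr was kept by the low-count filter only through its Mdr1- libraries. The log2 fold change was -2.05 ± 0.72 (95% confidence interval -3.69 to -0.42, adjusted p = 0.28), and with the block -1.88 (adjusted p = 0.15), so the difference did not pass in either fit. Pparg, the PPAR gene of fat cells and macrophages, had too few reads to test, with 5, 16 and 0 counts in Mdr1+ and 25, 9 and 15 in Mdr1- libraries. Its levels were 0.831, 0.748 and 0 CPM in Mdr1+ and 2.79, 0.778 and 2.55 CPM in Mdr1- libraries, so that the groups overlapped.

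Markers of monocytes and macrophages, which also use Vdr, Pparg and Nr1h3, were uneven between libraries. The 11 of 12 listed markers found in the table summed to 12.6 to 23.6 CPM in Mdr1+ and 10.8 to 74.4 CPM in Mdr1- libraries, the highest value being in replicate 3. There Cd14 was at 23.6, Lyz2 at 14.6 and Csf1r at 5.09 CPM, and no other library exceeded 0.943, 1.67 and 0.259 CPM for these genes. Of the 2 tested, 0 passed with the group alone, and the blocked fit called Lyz2 lower in Mdr1+ (-2.52 ± 0.69, adjusted p = 0.046). Vdr and Pparg were highest in the Mdr1- library of replicate 1, where that sum was 15.7 CPM. Of that sum 11.2 CPM was Cd68, which was at 8.65 to 17.9 CPM over all 6 libraries. Lyz2 and Itgam were at 1.67 and 1.34 CPM there, so the sum is no measure of these cells in that library. Dendritic cell markers summed to 24.6 to 53.3 CPM in Mdr1+ and 63.8 to 93.9 CPM in Mdr1- libraries, with a median log2 fold change of -1.13 over the 5 tested. Of these 5, 0 passed with the group alone and 2 fell with the block. Cd74, a gene of antigen presentation, was at 22.6, 19.4 and 34.0 CPM in Mdr1+ and at 45.3, 56.6 and 59.4 CPM in Mdr1- libraries (with the block -1.15 ± 0.18, adjusted p = 0.0043). H2-Aa, a class II gene, was the other (-2.48 ± 0.54, adjusted p = 0.019). Among the other markers of this list, Clec9a was at 0 in all 6 libraries and Flt3 at most at 0.335 CPM. Zbtb46 was detected in all 6, at 3.82, 1.87 and 5.66 CPM in Mdr1+ and 5.02, 3.29 and 4.58 CPM in Mdr1- libraries, with overlap. Itgax was at 0.498, 0.467 and 0 CPM in Mdr1+ and 0.893, 2.51 and 0.849 CPM in Mdr1- libraries. Ccl22 was at 1.33, 0.234 and 5.19 CPM in Mdr1+ and 1.56, 0.259 and 9.17 CPM in Mdr1- libraries. H2-Ab1 was at 3.66, 1.31 and 2.83 CPM against 4.58, 6.66 and 6.45 CPM. The part of these cells in the values of Vdr and Pparg was not tested.

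The sensors of bile acids and foreign compounds were at or near 0. Nr1h4, which encodes the bile acid receptor FXR, had 0 counts in all 6 libraries, which allows up to 0.102 CPM over the Mdr1+ and 0.117 CPM over the Mdr1- libraries, taking 3 counts over the group as the limit. Nr0b2, an FXR target that encodes the repressor SHP, also had 0 counts. Nr1i2, the PXR gene, had 1 count over the Mdr1+ and 2 over the Mdr1- libraries. Nr1i3, the CAR gene, had 1 count over the Mdr1+ and 0 over the Mdr1- libraries. A difference between the groups was not detectable at this depth for these 4 genes. In GENCODE M21, 2160 exonic bases of Nr1i3 are shared with Tomm40l on the opposite strand, where reads may go uncounted or to either gene, since the strand setting is not given. These limits cover counting error only.

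Of the PPARs, receptors of fatty acids, Ppard was the tested member, at 15.5, 18.1 and 10.4 CPM in Mdr1+ and 13.4, 13.1 and 12.7 CPM in Mdr1- libraries. The Mdr1+ values lay on both sides of the Mdr1- values (log2 fold change 0.19 ± 0.28, 95% confidence interval -0.45 to 0.83). Ppara, the form of liver and heart, had 1 count over each group.

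Among the orphan receptors, a class named for lacking a known ligand when found, 5 of 12 were tested and 0 passed. Nr2c2, which encodes the repressor TR4, was at 242, 210 and 292 CPM in Mdr1+ and 231, 193 and 236 CPM in Mdr1- libraries. The groups overlapped (log2 fold change 0.17 ± 0.18), and 3533 of its exonic bases are shared with Mrps25 on the opposite strand, so that its level is uncertain. Esrra, which encodes ERR alpha, a regulator of mitochondrial genes, was at 19.9, 40.2 and 35.8 CPM in Mdr1+ and at 23.6, 31.1 and 22.6 CPM in Mdr1- libraries, with overlap (0.31 ± 0.29, 95% confidence interval -0.35 to 0.97). Nr6a1, the germ cell nuclear factor gene, was at 6.31, 5.33 and 6.60 CPM in Mdr1+ and at 5.02, 3.89 and 3.74 CPM in Mdr1- libraries. Its groups did not overlap, but at these counts the 95% confidence interval reached from -0.35 to 1.37 around 0.51. Nr2c1, which encodes the TR4 relative TR2, had 0.28 ± 0.47, and Nr2f6, a repressor of Th17 cytokine genes, had -0.33 ± 0.44. Nr2f6 shares 914 exonic bases with Ocel1 on the opposite strand.

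The other 7 orphan receptors were all but silent. Hnf4a of liver and gut epithelium, Nr5a1 of steroid-making glands, Nr5a2 of liver and gut, Nr0b1, Nr0b2 and Nr2f2 had 0 counts in all 6 libraries, and Nr2f1 had 2 counts, both in the Mdr1+ library of replicate 1. With Nr1h4 and Rxrg this makes 8 members without a count. No member that was too low to test reached more than 2.79 CPM in any library.

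**Figure D3:**
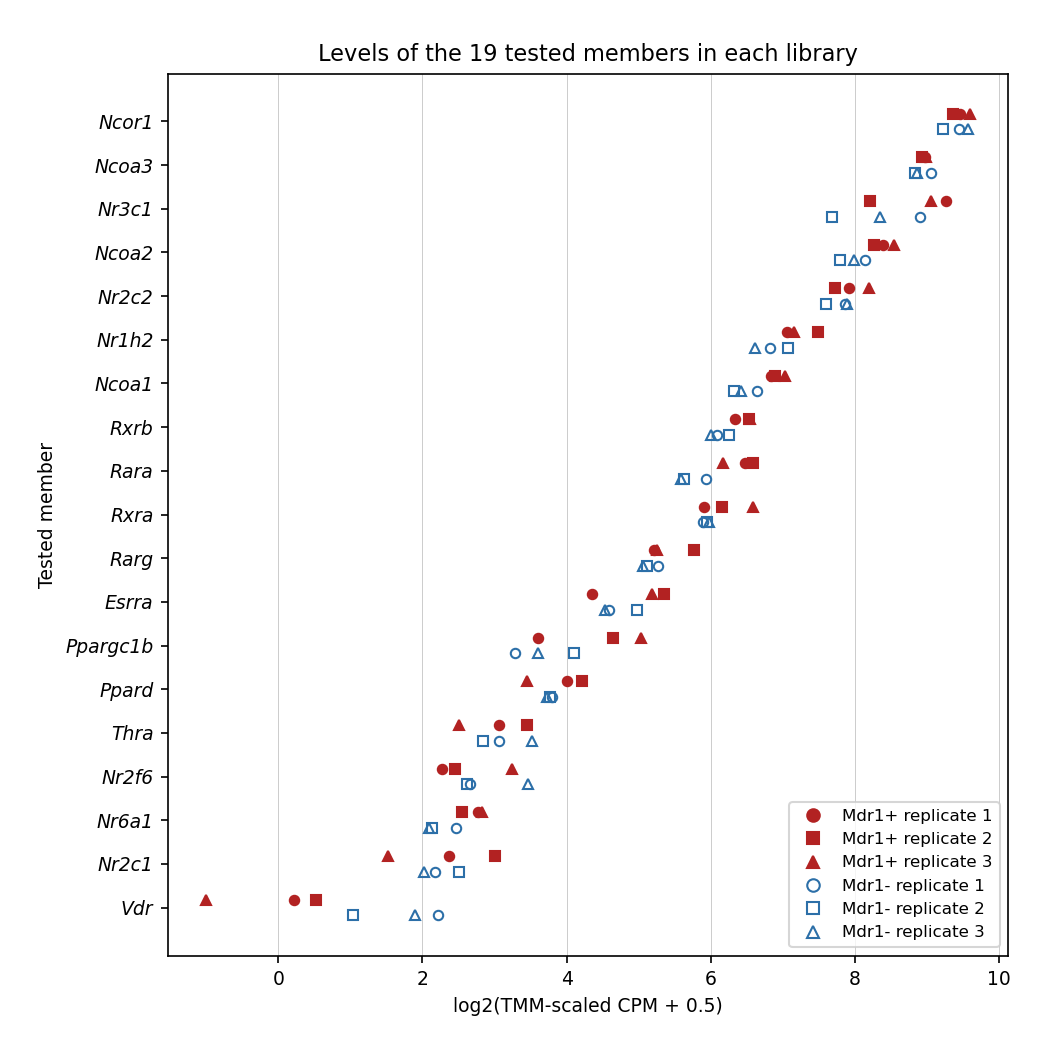
Level of each tested member (y axis) as log2(TMM-scaled CPM + 0.5) (x axis) in the Mdr1+ (filled red) and Mdr1- (open blue) libraries; symbols mark the replicate number. Ncor1 is the highest by reads and Vdr the lowest, Vdr in the Mdr1+ library of replicate 3 being at 0, and Rara, Rxrb, Nr6a1, Ncoa1, Ncoa2 and Vdr have no overlap between groups. Levels here are not per exon length, so the order of genes is not one of transcript abundance.

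Coregulators were among the members with most reads, and 2 of the 5 tested rose with the block. The p160 coactivators Ncoa1 (SRC-1), Ncoa2 (SRC-2) and Ncoa3 (SRC-3) bind activated receptors and bring in histone acetyltransferases. Ncoa1 was at 114, 118 and 130 CPM in Mdr1+ and at 99.2, 79.2 and 84.9 CPM in Mdr1- libraries, with no overlap. Its log2 fold change was 0.46 ± 0.16 (95% confidence interval 0.09 to 0.83, adjusted p = 0.29), and the blocked fit called it (0.46 ± 0.12, adjusted p = 0.034), though not without replicate 2 (adjusted p = 0.2). Ncoa2 was at 333, 306 and 372 CPM in Mdr1+ and at 280, 221 and 253 CPM in Mdr1- libraries, also with no overlap. Its log2 fold change was 0.42 ± 0.17 (95% confidence interval 0.04 to 0.81, adjusted p = 0.36). With the block it was 0.42 ± 0.09 (adjusted p = 0.017), and the call held without replicate 1, 2 or 3 (adjusted p = 0.0084, 0.049 and 0.018). These smaller fits leave almost no libraries beyond their terms and are a weak check.

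Ncoa3 was at 501, 485 and 507 CPM in Mdr1+ and at 532, 454 and 466 CPM in Mdr1- libraries. Its groups overlapped and the log2 fold change was 0.04 ± 0.16, with a 95% confidence interval of -0.32 to 0.40. Ncor1, the corepressor that links unliganded receptors to histone deacetylase, was at 700, 654 and 771 CPM in Mdr1+ and at 692, 598 and 755 CPM in Mdr1- libraries. These groups overlapped as well (0.05 ± 0.17, 95% confidence interval -0.33 to 0.44). Ppargc1b, a coactivator of mitochondrial genes, had a mean of 22.7 ± 10.3 CPM in the Mdr1+ libraries against 12.6 ± 3.78 CPM in the Mdr1- libraries (SD, n = 3 each). Its log2 fold change was 0.83 ± 0.40 (95% confidence interval -0.07 to 1.72, adjusted p = 0.47), with pair ratios of 1.26, 1.47 and 2.74. Its highest value, 32.1 CPM, was in the shallow Mdr1+ library of replicate 3, and without replicate 3 the log2 fold change was 0.45. Its better known relative Ppargc1a had 1 count over each group.

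The shares that family members take of their own family's reads do not depend on library scaling, and they were compared after the values of the single genes had been seen. Of the reads on the 3 p160 genes, Ncoa3 took 52.9%, 53.3% and 50.2% in the Mdr1+ libraries and 58.4%, 60.1% and 58.0% in the Mdr1- libraries. Ncoa2 took 35.1%, 33.7% and 36.9% in Mdr1+ and 30.7%, 29.4% and 31.5% in Mdr1- libraries. Ncoa1 took 12.0%, 13.0% and 12.9% in Mdr1+ and 10.9%, 10.5% and 10.6% in Mdr1- libraries. None of these shares overlapped between the groups. The 3 shares add up to the whole in each library, so they are not separate results. A lower share of Ncoa3 follows from higher shares of the others, and the level of Ncoa3 itself had a log2 fold change of 0.04 ± 0.16.

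Rara took 70.7%, 63.9% and 65.4% of the reads on Rara and Rarg in Mdr1+ and 61.4%, 58.8% and 59.2% in Mdr1- libraries, again without overlap, a difference of the means of 6.85 percentage points. The share of Rxra among Rxra and Rxrb overlapped, with means of 45.6% ± 4.58 in Mdr1+ and 46.9% ± 2.46 in Mdr1- cells (SD, n = 3 each). A two-sided exact permutation test gave p = 0.1, the smallest that 3 against 3 allows, for Rara, Ncoa1, Ncoa2 and Ncoa3 (adjusted p = 0.12 over the 5 shares), and p = 0.7 for Rxra. The design therefore cannot take these shares past a threshold of 0.05.

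**Figure D4:**
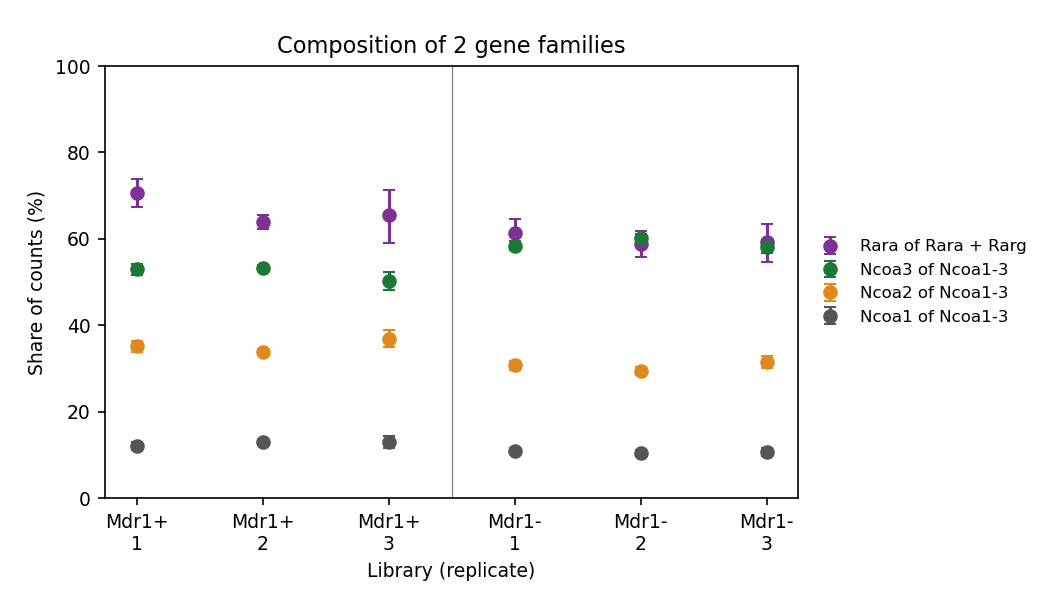
Share of a family's counts (y axis, percent) taken by Rara of Rara and Rarg, and by Ncoa3, Ncoa2 and Ncoa1 of the 3 p160 genes, in each Mdr1+ and Mdr1- library (x axis, replicate number below); bars are 95% Wilson intervals, which cover counting error only. Ncoa3 takes 50.2% to 53.3% in Mdr1+ and 58.0% to 60.1% in Mdr1- libraries, and Rara 63.9% to 70.7% in Mdr1+ and 58.8% to 61.4% in Mdr1- libraries.

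Genes that the receptors are known to regulate were counted from lists, each read against the background above. Among 16 tested glucocorticoid receptor targets 1 rose, and with the block 6 rose and 2 fell, with a median log2 fold change of 0.35. Il7r, the interleukin 7 receptor gene, was at 988, 713 and 942 CPM in Mdr1+ and 452, 289 and 398 CPM in Mdr1- libraries (1.22 ± 0.22, adjusted p = 0.025). Tsc22d3, which encodes the glucocorticoid-induced leucine zipper, rose with the block (0.67 ± 0.09, adjusted p = 0.0023), while Fkbp5, a chaperone gene of the same receptor, fell with it (-0.77 ± 0.10, adjusted p = 0.0016). Without the block these had 0.68 ± 0.18 and -0.77 ± 0.27 and did not pass. Errfi1, a feedback inhibitor gene, rose with the block by 0.72 ± 0.11 (adjusted p = 0.0035). Tsc22d3 and Fkbp5, both classical targets of the receptor, did not share a direction.

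Among 10 tested oxysterol receptor targets 0 passed with the group alone, and with the block 3 rose and 1 fell, with a median of 0.10. Abcg1, a cholesterol exporter gene, was at 315, 335 and 241 CPM in Mdr1+ and at 232, 204 and 178 CPM in Mdr1- libraries, with no overlap, and rose with the block (0.54 ± 0.09, adjusted p = 0.0067). Mylip, which encodes a ligase that degrades the LDL receptor, rose with the block by 0.86 ± 0.13 (adjusted p = 0.0037), and Arl4c, a small GTPase gene, by 0.52 ± 0.09 (adjusted p = 0.0058). Scd2, a fatty acid desaturase gene, fell with it (-0.59 ± 0.12, adjusted p = 0.012). The gene of the receptor itself, Nr1h2, is in the set above that rose with the block.

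Of 8 tested retinoic acid receptor targets 1 fell with the group alone. The blocked fit called 1 higher and 2 lower, and the median was -0.16. Ccr9, the homing receptor of the small intestine, was at 15.6, 25.3 and 20.7 CPM in Mdr1+ and at 82.7, 144 and 125 CPM in Mdr1- libraries, and fell (-2.50 ± 0.27, adjusted p = 0.0038). Tgm2, a transglutaminase gene, fell with the block (-1.74 ± 0.28, adjusted p = 0.0047), and Cd38, an ectoenzyme gene, rose with it (0.92 ± 0.22, adjusted p = 0.028). Rara, the receptor, was higher in the Mdr1+ libraries in which Ccr9 was lower.

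Of 18 listed bile acid and xenobiotic receptor targets, 3 were tested and 11 had 0 counts in all 6 libraries, among them Cyp3a11, Cyp2b10 and Abcb11. The 3 tested were transporters: Abcb1a, which encodes Mdr1 and checks the sort, was at 177, 132 and 178 CPM in Mdr1+ and at 72.9, 42.0 and 73.4 CPM in Mdr1- libraries, and rose (1.37 ± 0.25, adjusted p = 0.024). Abcb1b, the other mouse gene of Mdr1, rose (0.74 ± 0.12, adjusted p = 0.0046) and Abcc3 fell (-1.72 ± 0.31, adjusted p = 0.0089) with the block. Both Mdr1 genes are tied to the sort itself, so neither is a separate reading of these receptors. Of 9 vitamin D receptor targets 1, Rgs2, a gene that damps G protein signals, was tested and rose with the block (0.51 ± 0.11, adjusted p = 0.016), and Cyp24a1, the enzyme gene that this receptor induces most directly, had 0 counts.

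Mitochondrial targets of ERR and the PGC-1 coactivators were lower in median, while their regulators Esrra and Ppargc1b did not pass in either fit. Of 18 tested 0 passed with the group alone, 7 fell and 0 rose with the block, and the median was -0.31, with medians of -0.30, -0.30 and -0.32 in the 3 pairs. Fh1, the fumarate hydratase gene, was at 34.2, 35.5 and 38.7 CPM in Mdr1+ and at 59.6, 68.4 and 53.1 CPM in Mdr1- libraries, with no overlap (with the block -0.76 ± 0.15, adjusted p = 0.011). Cs, citrate synthase, fell with the block by 0.48 on the log2 scale, and Cox6a1 and Atp5b, subunit genes of the respiratory chain and ATP synthase, had -0.53 ± 0.11 and -0.42 ± 0.09 (adjusted p = 0.017 and 0.016). Of 14 tested PPAR targets and fatty acid oxidation genes 0 passed with the group alone, and Hadha, a subunit gene of the mitochondrial trifunctional protein, fell with the block (-0.33 ± 0.09, adjusted p = 0.043).

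Among the other nuclear receptors 9 of 17 were tested. With the block Nr1d2, a repressor gene of the circadian clock, rose (1.03 ± 0.12, adjusted p = 0.0012), and Nr4a1, an early gene of T cell receptor signalling, fell (-0.36 ± 0.10, adjusted p = 0.047). Among 23 other coregulators, all tested, 0 passed with the group alone, 3 rose and 0 fell with the block. Pprc1, a relative of the PGC-1 genes, was at 107, 111 and 153 CPM in Mdr1+ and at 78.8, 73.7 and 86.3 CPM in Mdr1- libraries, with no overlap (with the block 0.61 ± 0.11, adjusted p = 0.0085). Lcor, a ligand-dependent corepressor gene, and Trim24, a ligand-dependent coregulator gene, rose with the block by 0.53 ± 0.14 and 0.35 ± 0.10 (adjusted p = 0.042 and 0.047).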

How the data were processed

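RNA sequencing counts of 6 libraries (3 Mdr1+, 3 Mdr1-; groups and replicate numbers from the sample titles) were used. Raw read counts per gene symbol were deposited by the authors in 1 table. Libraries were made from total RNA with a stranded kit, per the labels' protocols. Per the submitters' processing notes, the tools include TopHat, HTSeq and DESeq2 and the build is mm9; for the annotation, versions and strand setting, nothing is given in the sources used here. Rows of unassigned reads, given for replicates 1 and 2, stayed out. They held 67.0% to 73.2% of those libraries' entries as reads without a unique position and 13.2% to 19.7% as reads in no feature. As deposited, the replicate 3 columns correlated at 0.424 to 0.460 (Spearman, across genes) with the other 4, and 0.926 to 0.962 once placed on the names sorted ignoring case, against 0.957 to 0.969 among those 4.

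edgeR 4.0.16 (R 4.3.3) was used with TMM scaling, filterByExpr by group and the robust quasi-likelihood F test, checked on simulated data. The simulation held no difference between replicate numbers and covered only the fit with the group alone, so it does not check the blocked fit. P-values were adjusted by the Benjamini-Hochberg method across every gene tested. The members, the lists and the tests were chosen with earlier results of these data known. Values in every library are given for members called in either fit or without overlap between groups, for the 6 other tested members with the most reads, and, beyond that rule, for Ppard, Thra and some low members. Up to 4 genes of a list are named, those called first with the group alone and then with the block, by p-value. A gene among the other nuclear receptors, and the counts that need it, are not reported here. Libraries of the same number deviated together (correlations 0.41, 0.57 and 0.21 across genes, each over 0.1), which comes from the data, so the numbers were taken to pair them. Levels per kb use exon lengths of protein-coding transcripts in GENCODE M21, a later build than the counts. Counts limit precision: a floor of 3 counts is 0.144 to 1.35 CPM in a library. The alternatives were DESeq2 1.42.0, other scalings and filters, the block, and leaving out libraries or replicate numbers.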

Additional observations from a re-analysis of the deposited data

How the results depend on the processing

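Of 342 log2 fold changes recomputed for the 19 tested members under 18 alternatives, 327 kept their sign, and 13 members kept it throughout. The turned signs were all of values that had not passed. Thra ran from -0.49 to 0.34 (0.12, 0.15, 0.32 and 0.34 without libraries of replicate 3), Nr2c1 from -0.22 to 0.52 (-0.05 and -0.13 without replicate 2), Nr2f6 from -0.63 to 0.03, Ncor1 from -0.03 to 0.13 (-0.01 without the Mdr1+ library of replicate 3), Ncoa3 from -0.02 to 0.07 (-0.01 without the Mdr1+ library of replicate 1 or the Mdr1- library of replicate 2) and Ppard from -0.02 to 0.35.

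The count of members higher in Mdr1+ was 0 with the group alone, 5 with the replicate block, 1 with DESeq2, and 0 with RLE or upper quartile scaling, with no low filter and with a stricter filter. Without 1 library or 1 replicate number it was 0, and with the block and without replicate 1, 2 or 3 it was 4, 2 and 5. The count lower was 0 in every setting. Over all tested genes 30 were higher and 212 lower. These became 633 and 716 with the replicate block, 113 and 381 with DESeq2, and 52 and 287 with no low filter. Leaving out a library or a replicate number gave 0 to 15 higher and 0 to 196 lower, the 0 being without replicate 3, and with the block 259, 436 and 1131 higher and 392, 694 and 1347 lower without replicate 2, 1 and 3; the cause was not tested. The other planned settings changed no call of a member. Blocked fits without a replicate number leave almost no libraries beyond their terms, so calls that hold in them are weakly checked. Depth limits the low members: at 2220691 counts, 3 counts are 1.35 CPM.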

Other observations

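The spread of each tested gene over the 6 libraries, on log2(CPM + 0.5), was divided into the part between Mdr1+ and Mdr1-, the part between replicate numbers, and the rest. Over all tested genes the medians were 19.2%, 54.3% and 13.1%, and over the 19 tested members 32.5%, 41.7% and 13.2%. Rara, Ncoa1 and Rxrb had most of their spread between the groups, with 81.5%, 81.1% and 76.4%. Ncor1, Nr2f6 and Nr2c1 had most of it between replicate numbers, with 90.3%, 89.7% and 78.1%. Nr3c1 followed with 74.7%, and 1.64% was left over after both. For Thra 93.8% followed neither. The groups are fewer than the replicate numbers, so noise alone would put less of the spread between groups than into either other part. The sizes of the parts are therefore not directly comparable with each other. These are values of 6 libraries, given with no test.

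The 7 B cell markers summed to 11.5 to 22.8 CPM in Mdr1+ and 7.14 to 11.3 CPM in Mdr1- libraries, with a median log2 fold change of 1.19 over the 3 tested. Of these, 0 passed with the group alone and Cd22 rose with the block (1.11 ± 0.29, adjusted p = 0.037), at 8.47, 21.6 and 8.96 CPM in Mdr1+ and 4.24, 8.21 and 5.09 CPM in Mdr1- libraries. Cd79a reached 11.3 CPM in the Mdr1+ library of replicate 3, while Ms4a1 was at most 0.112 CPM in any library. The 7 epithelial markers summed to 14.5 to 22.2 CPM in Mdr1+ and 7.59 to 9.68 CPM in Mdr1- libraries, with Krt8, Krt19 and Cldn7 at 0 in all 6. Cdh1, the E-cadherin gene, rose with the group alone, with 11.6, 13.6 and 11.3 CPM in Mdr1+ and 4.35, 2.77 and 1.70 CPM in Mdr1- libraries (2.04 ± 0.41, adjusted p = 0.038). Epcam reached 8.02 CPM in the Mdr1+ library of replicate 3 and at most 2.38 CPM in any other library. Krt18 went the other way and was lower in the Mdr1+ library of each pair. It ranged from 0.997 to 2.83 CPM in Mdr1+ and from 2.12 to 5.43 CPM in Mdr1- libraries, so these markers did not share a direction. The 9 stromal and endothelial markers summed to 118 to 192 CPM in Mdr1+ and 126 to 137 CPM in Mdr1- libraries, with Pdgfra and Kdr at 0 in all 6. Most of that sum was Pecam1, at 116, 115 and 190 CPM in Mdr1+ and 123, 115 and 128 CPM in Mdr1- libraries. Cdh5 was at 0.332, 0.327 and 0.472 CPM in Mdr1+ and 1.79, 2.42 and 1.87 CPM in Mdr1- libraries. The collagen genes and Pdgfrb reached at most 2.12 CPM. Acta2, a smooth muscle actin gene, fell with the group alone, with 0, 0.280 and 0 CPM in Mdr1+ and 4.35, 6.40 and 4.08 CPM in Mdr1- libraries (-4.70 ± 0.78, adjusted p = 0.018). It passed the low-count filter only through its Mdr1- libraries, and its fold change rests on Mdr1+ levels at or near 0. Only 1 of the 4 CD8 and NK cell markers and 1 of the 5 neutrophil markers that have a row were tested, and neither was called in either fit. The neutrophil markers summed to 0.327 to 5.66 CPM in Mdr1+ and 0.432 to 2.55 CPM in Mdr1- libraries. The part of such cells in the members' values was not tested. The 5 hepatocyte markers summed to at most 0.223 CPM.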
